A study of Mus musculus with 6 samples.

Results

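The protein tyrosine and dual-specificity phosphatases are a family whose typical enzymes remove phosphate from tyrosine on other proteins. In the dual-specificity branch they also remove it from threonine or serine. The family was taken here by symbol and not by activity. It held every gene called Dusp with a number, Ptpn with a number or Ptpr with 1 or 2 letters. That symbol had to be the only one annotated for the probe set. This gave 59 genes of the 19938 with a single symbol on the array, read by 74 probe sets. In 5 genes more than 1 probe set was available, and the brightest by its mean over all arrays was used. The 59 were 18 receptor-type phosphatases (Ptpr), 17 cytosolic ones (Ptpn), 14 atypical dual-specificity phosphatases, 4 inducible nuclear MAP kinase phosphatases (Dusp1, Dusp2, Dusp4, Dusp5), 3 cytoplasmic ERK phosphatases (Dusp6, Dusp7, Dusp9) and 3 JNK and p38 phosphatases (Dusp8, Dusp10, Dusp16).

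BCR-ABL is the fusion tyrosine kinase of chronic myeloid leukaemia, and Blk is a kinase of the Src family best known from B cells. Phosphatases set how long the signals of such kinases last. The MAP kinase phosphatases are themselves induced by the kinases that they switch off, which makes their RNA a usual readout of ERK activity. In blood cells, Ptprc (CD45) opens Src family kinases by removing an inhibitory phosphate, Ptpn6 (SHP-1) dampens receptor signals, and Ptpn11 (SHP-2) carries signals onward to Ras.

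RNA came from mouse bone marrow cells on whole-transcript Affymetrix arrays, with 2 arrays in each of 3 groups. Marrow of wild-type C57BL/6 mice, 8 weeks old and given 5-fluorouracil (5-FU), was infected with a retrovirus and put into C57BL/6 recipients. This virus encoded BCR-ABL, Blk and GFP in the BCR-ABL-Blk group, BCR-ABL and GFP in the BCR-ABL group, and GFP alone in the vector group. GFP-positive cells without lineage markers and with c-Kit and Sca-1 (LSK cells) were sorted 14 days after transplantation. The labels call the sorted cells leukaemia stem cells in both BCR-ABL groups and haematopoietic stem cells in the vector group. All 3 groups therefore share the drug, the infection, the transplant and the sort. The labels name the replicates as biological but give no number of mice behind each. P-values therefore set a difference against the spread between these arrays, pooled over the 3 groups. That spread is drawn towards the value usual for genes of similar signal.

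Of the 10 LSK markers looked up, 8 were read, and their median level was 10.20 and 10.30 in BCR-ABL-Blk, 10.25 and 10.26 in BCR-ABL, and 9.79 and 9.47 in vector cells. In each BCR-ABL group 6 of the 8 were above vector and 2 below by the mean difference. Flt3 is also on the dendritic cell list below. All levels here are log2 signal after quantile normalization, a scale on which 1 unit is a doubling of signal. Kit lay between 10.33 and 10.92 on all 6 arrays, while Ly6a, which encodes Sca-1, was not used here because no probe set named it alone. Marker lists of other blood cells differed between the groups too. The median of 11 B cell markers was 7.49 and 7.13 in BCR-ABL-Blk, 6.94 and 7.44 in BCR-ABL, and 10.4 and 8.68 in vector cells. For 9 monocyte markers it was 8.50 and 8.61 in BCR-ABL-Blk, 8.23 and 8.47 in BCR-ABL, and 9.41 and 10.25 in vector cells. For 10 neutrophil markers it was 10.08 and 9.93 in BCR-ABL-Blk, 10.55 and 10.54 in BCR-ABL, and 10.77 and 11.77 in vector cells. Medians of 6 erythroid markers were 9.89 and 9.26 in BCR-ABL-Blk, 10.18 and 10.19 in BCR-ABL, and 11.09 and 10.34 in vector cells. Those of 7 dendritic cell markers were 7.01 and 7.20 in BCR-ABL-Blk, 6.98 and 6.81 in BCR-ABL, and 7.86 and 7.51 in vector cells. These 5 lists had their highest medians in the vector group, and all 10 neutrophil and all 6 erythroid markers were also lower in BCR-ABL-Blk than in BCR-ABL by the mean difference. The list median was lowest in vector cells for 6 megakaryocyte markers, with 8.50 and 8.48 in BCR-ABL-Blk, 8.39 and 8.37 in BCR-ABL, and 7.92 and 7.74 in vector cells. So it was for 9 markers of mast cells, basophils and eosinophils, of which 6 were above vector and 3 below, with medians of 10.03 and 8.24 in BCR-ABL-Blk, 9.22 and 8.99 in BCR-ABL, and 7.57 and 7.22 in vector cells. Array medians of T and NK cell and of stromal markers lay between 6.59 and 7.02. In each comparison with vector, 1 of the 10 T and NK cell markers was lower at an adjusted p below 0.05 in the limma test described below. The LSK, B cell, monocyte, dendritic cell, megakaryocyte and mast cell lists also held markers that passed, at most 2 per list and comparison. The part of these cells in any phosphatase difference was not tested, and in bulk RNA fewer cells of a type cannot be told apart from less RNA per cell.

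No phosphatase passed the test in any comparison, so the family as a whole is described by its values. Differences were tested with limma over all 19938 genes, and a gene was called at a Benjamini-Hochberg adjusted p below 0.05. Against vector, 0 of 59 members were called in BCR-ABL-Blk cells, where 0.140% of all genes were, and 0 of 59 in BCR-ABL cells, where 0.145% were. For the mean of both BCR-ABL groups minus vector, the count was 0 of 59 against 0.502% of all genes. Between BCR-ABL-Blk and BCR-ABL the count was 0 of 59 against 0 of all genes. With so few calls over the whole array, an absence of calls among 59 genes is near the background.

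At an unadjusted p below 0.05, limma gave 4 members (6.78%) for BCR-ABL-Blk minus vector, against 9.42% of all genes, and 7 members (11.9%) for BCR-ABL minus vector, against 8.64%. It gave 7 members (11.9%) for the mean of both minus vector, against 10.5% of all genes, and 1 member (1.69%) for BCR-ABL-Blk minus BCR-ABL, against 3.96%. The median member differed from vector by 0.07 in BCR-ABL-Blk cells and by 0.03 in BCR-ABL cells on the log2 scale, beside 0.00 and 0.02 for all genes. Between BCR-ABL-Blk and BCR-ABL it differed by 0.01, beside -0.01 for all genes. The comparisons with vector share the 2 vector arrays, so their values below are given side by side and are not independent.

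The arrays set a bound on the change in array signal for most members. The 95% interval of the difference lay within 2-fold in either direction for 53 of 59 members in BCR-ABL-Blk minus vector. That was 89.8% of the family, beside 94.5% of all genes. It did so for 53 in BCR-ABL minus vector (89.8%, beside 94.6% of all genes). The counts were 54 in the mean of both minus vector (91.5%, beside 95.8%) and 55 in BCR-ABL-Blk minus BCR-ABL (93.2%, beside 97.1%). Of the 59 members, 25 had a mean at or below the median gene signal. Signal over background was not measured, so for these a narrow interval need not bound the change in RNA. Dusp1 and Dusp22 were too variable for that bound in each comparison of single groups. Ptpn9, Dusp19 and Ptprg exceeded it in both comparisons with vector, Ptpn3 in both that involve BCR-ABL-Blk, and Ptprj in both that involve BCR-ABL without Blk.

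**Figure D1:**
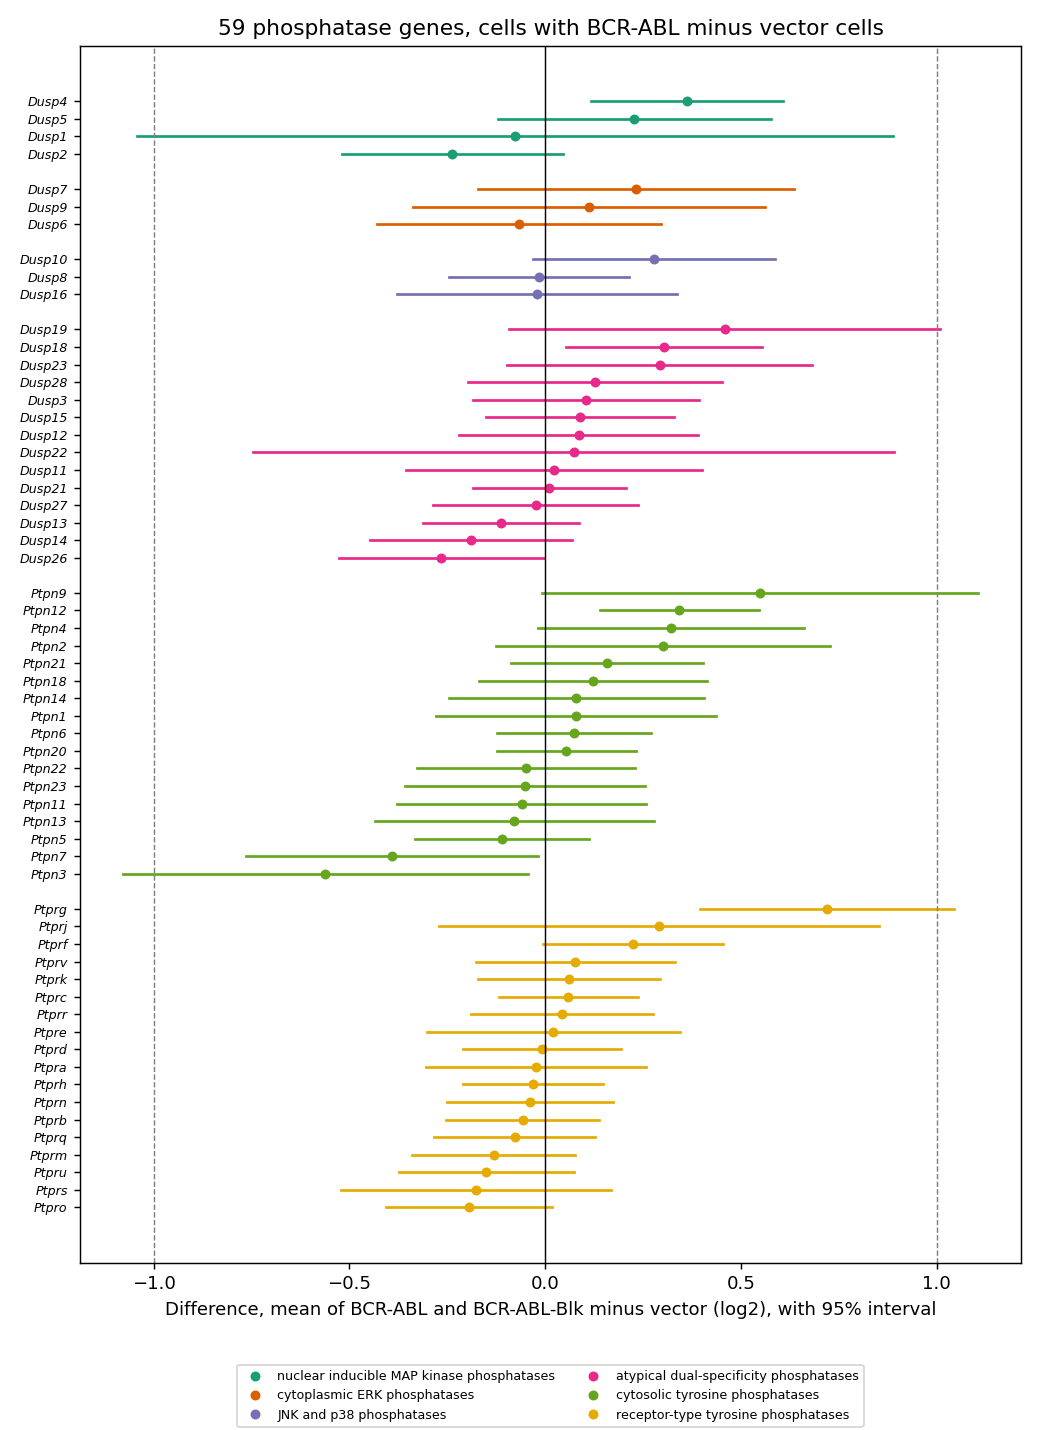
Difference in log2 signal, mean of BCR-ABL and BCR-ABL-Blk minus vector, for the 59 phosphatases: points are estimates, bars 95% limma intervals, colours subfamilies, and dashed lines a 2-fold difference. For 54 genes the interval stays within the dashed lines; Ptprg lies furthest to the right at 0.72 and Ptpn3 furthest to the left at -0.56.

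Among the inducible nuclear phosphatases, Dusp4 was the one with all 4 BCR-ABL-carrying arrays above both vector arrays. Dusp4 (MKP-2) acts on ERK, JNK and p38 in the nucleus. Its log2 signal was 7.26 and 7.36 in BCR-ABL-Blk, 7.38 and 7.58 in BCR-ABL, and 6.98 and 7.09 in vector cells. The difference from vector was 0.28 in BCR-ABL-Blk (adjusted p = 0.541, limma) and 0.45 in BCR-ABL (SE 0.12, adjusted p = 0.313). For the mean of both it was 0.36 (SE 0.11, 95% interval 0.12 to 0.61, adjusted p = 0.261), so the direction was the same on every array and the test was not passed. Its signal was below the median gene level of 7.5 on all arrays but the higher one of BCR-ABL.

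Dusp2 (PAC-1), a phosphatase of activated lymphoid and myeloid cells, ran the other way. It read 8.07 and 7.97 in BCR-ABL-Blk, 8.13 and 7.89 in BCR-ABL, and 8.23 and 8.28 in vector cells. All 4 BCR-ABL-carrying arrays lay below both vector arrays, with a mean difference of -0.24 (95% interval -0.52 to 0.04, limma adjusted p = 0.56). Dusp5, which holds ERK in the nucleus, read 8.17 and 7.90 in BCR-ABL-Blk, 8.12 and 8.26 in BCR-ABL, and 7.70 and 8.07 in vector cells. The BCR-ABL arrays lay above both vector arrays and the BCR-ABL-Blk arrays overlapped them.

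Dusp1 (MKP-1), the immediate-early member that acts on p38, JNK and ERK, varied more within groups than between them. It read 9.58 and 9.12 in BCR-ABL-Blk, 9.46 and 8.58 in BCR-ABL, and 8.53 and 9.99 in vector cells. The vector arrays held both the lowest and the highest value of the 6. The mean of both BCR-ABL groups differed from vector by -0.08, with a 95% interval of -1.04 to 0.89 (limma adjusted p = 0.975), and by -0.81 without vector replicate 1 and 0.65 without vector replicate 2. A list of 15 other immediate-early and handling genes, which respond within minutes to stimulation or to cell isolation, was read beside it. The list's median was 8.66 and 8.45 in BCR-ABL-Blk, 8.79 and 8.28 in BCR-ABL, and 8.03 and 8.59 in vector cells. Fosb, a subunit of the AP-1 factor induced by the same stimuli, read 8.94 and 8.74 in BCR-ABL-Blk, 9.08 and 7.93 in BCR-ABL, and 7.45 and 8.91 in vector cells. In each group, the array with the higher Dusp1 also had the higher list median and the higher Fosb. Across the 6 arrays the order differed, with the highest Dusp1 on a vector array and the highest list median on a BCR-ABL array. Whether handling of the cells set the Dusp1 level was not tested.

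**Figure D2:**
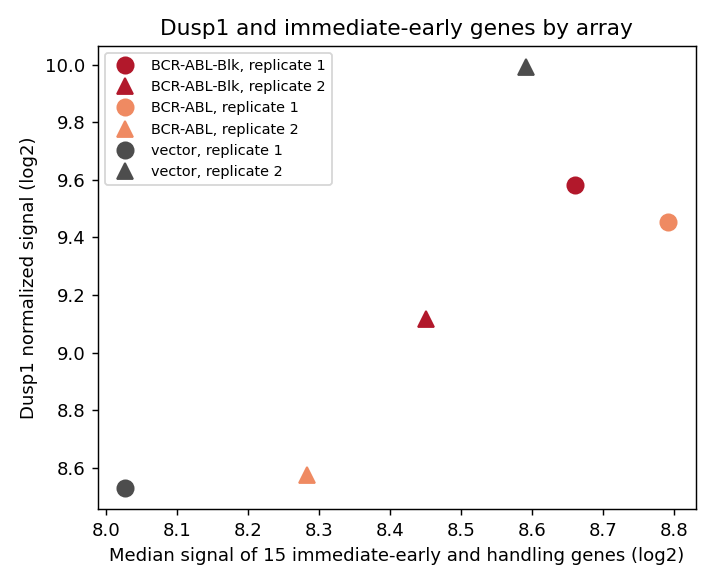
Log2 signal of Dusp1 against the median log2 signal of 15 immediate-early and handling genes on the 6 arrays, with colour for the group and shape for the replicate. In each group the array with the higher list median is also the one with the higher Dusp1, and the vector arrays hold the lowest and the highest Dusp1.

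The promoter of Dusp1 is shown because its level differed within each pair of arrays in the same direction as the list median. The stretch is the 250 bases before the RefSeq start on GRCm38.p6, chr17:26508473-26508722, minus strand, read 5′ to 3′. Capitals mark TGACGTCA, the cyclic AMP response element at base 108, and CACGTG, the E-box at base 125.
Dusp1: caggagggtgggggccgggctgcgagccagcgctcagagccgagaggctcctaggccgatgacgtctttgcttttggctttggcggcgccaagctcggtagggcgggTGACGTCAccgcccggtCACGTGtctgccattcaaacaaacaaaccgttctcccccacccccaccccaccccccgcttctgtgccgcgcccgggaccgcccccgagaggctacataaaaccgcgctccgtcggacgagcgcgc

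Both motifs were searched on both strands in that window of every RefSeq promoter, 32851 in all, with TTCNNNGAA (the STAT form) and TGANTCA (the AP-1 form). Of the 59 members 47 had an entry, with 64 windows between them. TGACGTCA stood in 4 member windows (6.25%), those of Dusp1, Dusp8, Ptpn11 and Ptpru, and in 1.55% of all windows. TTCNNNGAA stood in 6 (9.38%; Dusp14, Ptpn22, Ptpn23, Ptpre, Ptprh and Ptprj) and in 7.02% of all windows. TGANTCA stood in 3 (4.69%; Dusp13, Ptpre and Ptprh) and in 6.75% of all, and CACGTG in 3 (4.69%; Dusp1, Dusp2 and Ptprs) and in 6.02% of all. These are matches of letters and are given as a description.

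The cytoplasmic ERK phosphatases gave values that overlapped with vector in both BCR-ABL groups. Dusp6 (MKP-3), the classical negative feedback enzyme of ERK, read 8.45 and 8.46 in BCR-ABL-Blk, 8.54 and 8.85 in BCR-ABL, and 8.83 and 8.46 in vector cells. Its mean difference from vector was -0.07 with a 95% interval of -0.43 to 0.30 (limma adjusted p = 0.936). The vector arrays spanned nearly the whole range of the 6. Dusp7 and Dusp9, which also act on ERK, differed from vector by 0.23 and 0.11 for the mean of both (adjusted p = 0.717 and 0.908).

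Among the JNK and p38 phosphatases, Dusp10 (MKP-5) had all 4 BCR-ABL-carrying arrays above both vector arrays. It read 7.64 and 7.78 in BCR-ABL-Blk, 7.68 and 7.86 in BCR-ABL, and 7.63 and 7.30 in vector cells. The lowest of the 4 lay next to vector replicate 1, and the mean difference was 0.28 (95% interval -0.03 to 0.59, limma adjusted p = 0.528). Leaving out vector replicate 1 gave 0.44, and leaving out replicate 2 gave 0.11. Dusp16 and Dusp8 differed from vector by -0.02 each for the mean of both.

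The 14 atypical dual-specificity phosphatases, most of them small enzymes without the MAP kinase docking domain, had a median difference from vector of 0.07 in BCR-ABL-Blk and 0.08 in BCR-ABL. Dusp18 had the smallest p among them for BCR-ABL-Blk minus vector and for the mean of both minus vector. It read 7.61 and 7.53 in BCR-ABL-Blk, 7.54 and 7.32 in BCR-ABL, and 7.17 and 7.23 in vector cells, so all 4 BCR-ABL-carrying arrays were the higher ones. The difference from vector was 0.37 in BCR-ABL-Blk (SE 0.12, limma adjusted p = 0.372) and 0.24 in BCR-ABL (adjusted p = 0.656). Dusp26 and Dusp13 lay below both vector arrays on all 4. Dusp26 read 6.99 and 7.11 in BCR-ABL-Blk, 7.13 and 6.85 in BCR-ABL, and 7.24 and 7.33 in vector cells (mean difference -0.27, adjusted p = 0.473).

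The cytosolic tyrosine phosphatases held Ptpn12 (PTP-PEST), which acts on Cas, paxillin and other adhesion and signalling proteins. It read 11.17 and 11.03 in BCR-ABL-Blk, 11.26 and 11.06 in BCR-ABL, and 10.78 and 10.79 in vector cells. Every BCR-ABL-carrying array exceeded both vector arrays, which lay 0.01 apart. The difference was 0.31 in BCR-ABL-Blk (SE 0.10, limma adjusted p = 0.358), 0.37 in BCR-ABL (SE 0.10, adjusted p = 0.31), and 0.34 for the mean of both (95% interval 0.14 to 0.55, a 1.27-fold difference, adjusted p = 0.193). Without normalization between arrays the mean difference was 0.42 and passed, with an adjusted p of 0.0157, in a setting that called 3.08% of all genes against 0.502% with it.

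The cytosolic members best known from BCR-ABL and cytokine signalling differed little from vector for the mean of both BCR-ABL groups. Ptpn6 read 10.64 and 10.74 in BCR-ABL-Blk, 10.64 and 10.56 in BCR-ABL, and 10.60 and 10.55 in vector cells, a mean difference of 0.07 (95% interval -0.12 to 0.27, limma adjusted p = 0.839). Ptpn11 read 9.97 and 10.29 in BCR-ABL-Blk, 9.86 and 9.83 in BCR-ABL, and 9.90 and 10.19 in vector cells (mean difference -0.06, 95% interval -0.38 to 0.26). For both genes this interval of the mean difference excluded a 1.5-fold difference in either direction. The mean for Ptpn11 joins differences of opposite sign. They were -0.21 in BCR-ABL, with both arrays below both vector arrays, and 0.09 in BCR-ABL-Blk. Ptpn1 (PTP1B), which dephosphorylates JAK2 and receptor kinases, read 8.76 and 9.07 in BCR-ABL-Blk, 8.98 and 8.89 in BCR-ABL, and 9.02 and 8.68 in vector cells. Ptpn22, the lymphoid partner of Csk, read 9.09 and 9.01 in BCR-ABL-Blk, 9.17 and 9.13 in BCR-ABL, and 9.23 and 9.06 in vector cells. Their mean differences were 0.08 (95% interval -0.28 to 0.44) and -0.05 (-0.33 to 0.23), with all groups overlapping for Ptpn1.

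Further cytosolic members had an unadjusted p below 0.05 for BCR-ABL minus vector. Ptpn7 (HePTP), an ERK and p38 phosphatase of blood cells, read 9.93 and 10.03 in BCR-ABL-Blk, 9.63 and 9.85 in BCR-ABL, and 9.99 and 10.51 in vector cells. Both BCR-ABL arrays lay below both vector arrays, with a difference of -0.51 (SE 0.18, limma adjusted p = 0.476). Ptpn9 (MEG2), a vesicle-bound phosphatase, read 8.80 and 8.61 in BCR-ABL-Blk, 8.98 and 8.98 in BCR-ABL, and 8.75 and 7.84 in vector cells. Its difference of BCR-ABL from vector was 0.69 (SE 0.27, adjusted p = 0.549), with vector replicate 2 lying 0.91 below replicate 1. Ptpn4, a relative of Ptpn3 with FERM and PDZ domains, read 8.82 and 9.19 in BCR-ABL-Blk, 9.24 and 9.25 in BCR-ABL, and 8.71 and 8.90 in vector cells (BCR-ABL minus vector 0.44, SE 0.17, adjusted p = 0.507).

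**Figure D3:**
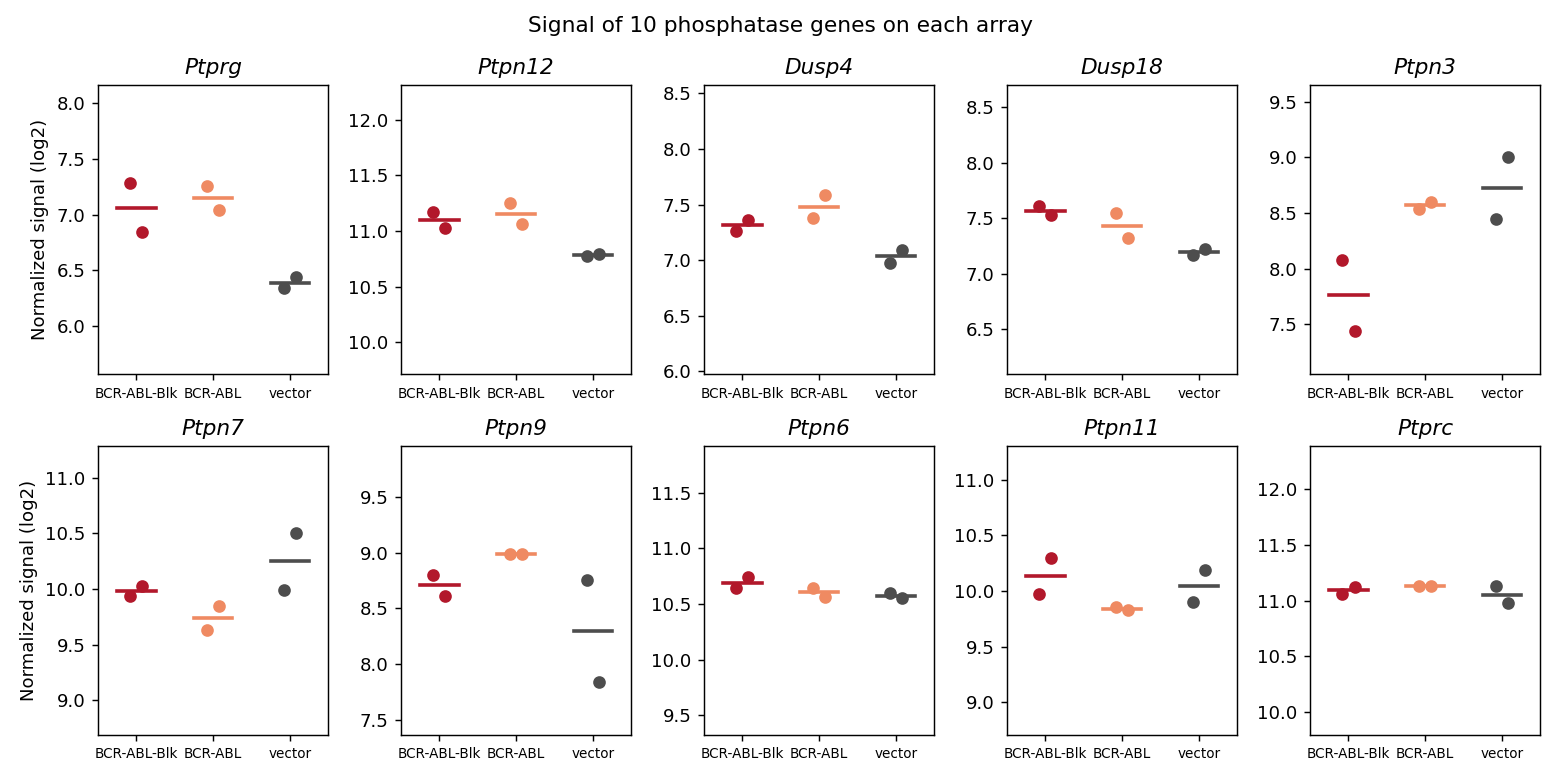
Log2 signal of 10 phosphatases, with 1 point per array and a bar at the group mean, BCR-ABL-Blk, BCR-ABL and vector from left to right; every panel spans the same log2 range. Ptprg, Ptpn12, Dusp4 and Dusp18 have every BCR-ABL-carrying array above both vector arrays, Ptpn3 has both BCR-ABL-Blk arrays below all others, and Ptpn9 has its widest pair in vector cells.

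Among the receptor-type phosphatases, Ptprg was the member with the smallest p of the family. Ptprg (RPTP-gamma) has an extracellular carbonic anhydrase-like domain and is known in human chronic myeloid leukaemia cells as a tumour suppressor candidate. Its log2 signal was 7.28 and 6.84 in BCR-ABL-Blk, 7.25 and 7.04 in BCR-ABL, and 6.33 and 6.43 in vector cells. All 4 BCR-ABL-carrying arrays were above both vector arrays. The difference was 0.68 in BCR-ABL-Blk (SE 0.16, limma adjusted p = 0.204) and 0.76 in BCR-ABL (SE 0.16, adjusted p = 0.169). For the mean of both it was 0.72 (SE 0.14, 95% interval 0.40 to 1.04), a 1.65-fold difference that missed the threshold with an adjusted p of 0.0938. It ranked 227 of 19938 genes by p. The signal was below the median gene level of 7.5 on every array, so the difference lies in the low range of the array, and how far it stood above background was not measured.

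RefSeq lists 2 starts for Ptprg on GRCm38.p6, both on the plus strand of chromosome 14, and both are shown because the array value does not say which one was used. The first window is chr14:11553303-11553552, with 68.4% G and C and 31 CpG sites. The second is chr14:12189693-12189942, with 52.4% G and C and 6 CpG sites. None of the 4 motifs stood in either window, so there are no capitals.
Ptprg, first start: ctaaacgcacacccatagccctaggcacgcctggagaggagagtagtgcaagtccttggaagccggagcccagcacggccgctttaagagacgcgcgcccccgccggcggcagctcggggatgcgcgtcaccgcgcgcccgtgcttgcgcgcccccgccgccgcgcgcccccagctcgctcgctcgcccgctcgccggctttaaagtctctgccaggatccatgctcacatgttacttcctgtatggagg
Ptprg, second start: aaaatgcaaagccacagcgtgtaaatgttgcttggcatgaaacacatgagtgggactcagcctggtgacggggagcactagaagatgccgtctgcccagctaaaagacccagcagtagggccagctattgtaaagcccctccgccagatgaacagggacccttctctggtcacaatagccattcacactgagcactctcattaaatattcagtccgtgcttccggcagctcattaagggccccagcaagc

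Ptprf (LAR), a receptor-type member better known from epithelia and neurons, read 7.12 and 7.07 in BCR-ABL-Blk, 7.32 and 7.11 in BCR-ABL, and 6.92 and 6.94 in vector cells. It too was higher on all 4 BCR-ABL-carrying arrays, with a difference of 0.28 in BCR-ABL (SE 0.11, limma adjusted p = 0.549). Ptprb, Ptprm, Ptpro and Ptpru lay below both vector arrays on all 4, by mean differences between -0.20 and -0.06 (adjusted p between 0.515 and 0.885). Ptprc read 11.06 and 11.13 in BCR-ABL-Blk, 11.13 and 11.13 in BCR-ABL, and 11.13 and 10.98 in vector cells. Its 6 values lay between 10.98 and 11.13, and the 95% interval of the mean difference was -0.12 to 0.24 (limma adjusted p = 0.862). Ptprj (CD148), another receptor that acts on the inhibitory tyrosine of Src family kinases, read 9.90 and 9.48 in BCR-ABL-Blk, 10.09 and 10.21 in BCR-ABL, and 10.06 and 9.20 in vector cells. Both BCR-ABL arrays lay above both vector arrays, the nearest pair almost level, and the BCR-ABL-Blk arrays lay between the vector arrays. For BCR-ABL minus vector the kept probe set gave 0.52, and a second one gave 0.24 with overlapping arrays. For the mean of both minus vector these were 0.29 and 0.23.

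Across the 59 genes, 7 were higher on all 4 BCR-ABL-carrying arrays than on both vector arrays (Dusp4, Dusp10, Dusp18, Ptpn12, Ptpn21, Ptprf and Ptprg) and 7 were lower on all 4 (Dusp2, Dusp13, Dusp26, Ptprb, Ptprm, Ptpro and Ptpru). Of all genes 11.3% were higher and 7.85% lower in this way, 19.2% together, beside 23.7% of the family. Of the higher members, Dusp4, Dusp18, Ptprf and Ptprg had a mean signal at or below the median gene level of 7.5. So did every lower member except Dusp2. In BCR-ABL-Blk alone 12 members were above both vector arrays and 9 below (19.7% and 17.5% of all genes), together 35.6% of the family beside 37.2% of all genes. In BCR-ABL alone 14 were above and 13 below (22.1% and 14.9% of all genes), together 45.8% beside 37.0%. By sign of the difference alone, 36 members were above vector in BCR-ABL-Blk, 35 in BCR-ABL and 33 for the mean of both, where 51.2%, 54.3% and 53.0% of all genes were.

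Setting BCR-ABL-Blk against BCR-ABL asks which genes differ when Blk is added, and among the phosphatases Ptpn3 had the smallest p. Ptpn3 (PTPH1) is a cytosolic phosphatase with FERM and PDZ domains. It read 8.08 and 7.44 in BCR-ABL-Blk cells, against 8.54 and 8.60 in BCR-ABL cells, with 8.45 and 9.01 in vector cells. Both BCR-ABL-Blk arrays were below all other arrays. The difference of BCR-ABL-Blk from BCR-ABL was -0.81 (SE 0.26, 95% interval -1.41 to -0.21, 0.570-fold), with an unadjusted p of 0.0144 and a limma adjusted p of 0.999. From vector it was -0.97 (SE 0.26, 95% interval -1.56 to -0.37, 0.512-fold, adjusted p = 0.261). The BCR-ABL-Blk arrays themselves were 0.65 apart, the one gap over 0.5 in that group.

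Ptpn3 had 12 probe sets on the array, and they did not all read the same. For BCR-ABL-Blk minus vector, 10 of 12 were below 0 and 2 above, with a median of -0.56 and a range of -1.78 to 0.23. For BCR-ABL-Blk minus BCR-ABL, 7 were below 0 and 5 above, with a median of -0.12 and a range of -1.49 to 0.19. The 4 with an unadjusted p below 0.05 in this comparison were 10513152, 10513154 (the kept one), 10513156 and 10513158, whose numbers follow one another in the array's numbering. Probe set 10513158 read 6.71 and 5.51 in BCR-ABL-Blk, 7.38 and 7.83 in BCR-ABL, and 7.30 and 8.48 in vector cells. The other 8 probe sets differed from BCR-ABL by less or in the opposite direction, so the lower value of Ptpn3 rests on a subset of its probe sets, and the transcript regions they read were not used here.

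**Figure D4:**
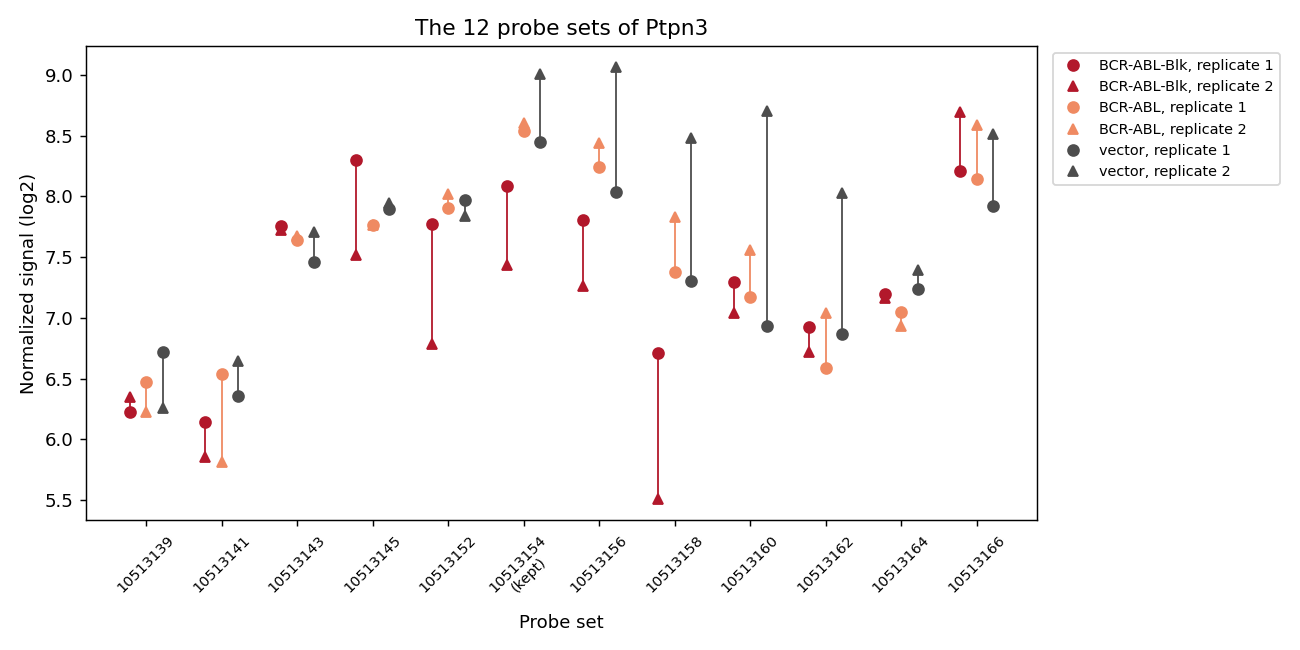
Log2 signal of each of the 12 Ptpn3 probe sets on the 6 arrays, with colour for the group, shape for the replicate and a line joining the pair. The BCR-ABL-Blk points lie below the others in 4 probe sets with neighbouring numbers and overlap them in most of the rest.

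Apart from Ptpn3, no member had an unadjusted p below 0.05 for BCR-ABL-Blk minus BCR-ABL. Ptpn11 was 0.29 higher (95% interval -0.08 to 0.66) with both BCR-ABL-Blk arrays above both BCR-ABL arrays, and 0.45 or 0.13 higher without BCR-ABL-Blk replicate 1 or 2. Ptprj was -0.46 apart (-1.11 to 0.19), with both BCR-ABL-Blk arrays the lower ones, while its second probe set gave -0.03 with overlapping arrays. Ptprd, at a low signal of 5.66 and 5.76 in BCR-ABL-Blk, 5.58 and 5.51 in BCR-ABL, and 5.54 and 5.73 in vector cells, differed by 0.16 between the BCR-ABL groups, and the vector arrays overlapped both. Ptpn4 differed by -0.24 and Dusp4 by -0.17, and the limma adjusted p was 0.999 for each of these 5 genes. Between these groups 10 members had both BCR-ABL-Blk arrays above and 10 had both below (14.0% and 20.0% of all genes), together 33.9% of the family beside 34.0% of all genes. By sign alone 30 members were above BCR-ABL, where 45.6% of all genes were.

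The vector arrays disagreed over more phosphatases than the other pairs did. The replicates differed by more than 0.5 in 1 member of 59 in BCR-ABL-Blk (1.69%, beside 4.32% of all genes), in 2 in BCR-ABL (3.39%, beside 2.43%), and in 9 in vector cells (15.3%, beside 8.46%). In vector cells these were Dusp22, Ptpn9, Ptprj, Dusp19, Dusp7 and Ptpn2, higher on replicate 1, and Dusp1, Ptpn3 and Ptpn7, higher on replicate 2. Dusp22 (JKAP), an atypical phosphatase of the JNK pathway, spanned 1.47 with values of 8.63 and 7.16, against 7.85 and 7.77 in BCR-ABL-Blk and 8.02 and 8.24 in BCR-ABL cells. Dusp19, which binds a kinase above JNK, read 8.71 and 9.16 in BCR-ABL-Blk, 8.80 and 8.72 in BCR-ABL, and 8.79 and 7.99 in vector cells.

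With vector replicate 1 left out, several of these genes passed the test against the remaining vector array. Ptpn9 was then 0.87 above vector in BCR-ABL-Blk (limma adjusted p = 0.0397) and 1.15 in BCR-ABL (adjusted p = 0.017). Ptpn3 was -1.25 from vector in BCR-ABL-Blk (adjusted p = 0.0475). In BCR-ABL cells, Dusp22 was 0.97 above it (adjusted p = 0.0289), Ptprj 0.96 above (adjusted p = 0.0483) and Ptpn7 -0.77 from it (adjusted p = 0.0428). That setting compares 2 arrays with a single vector array whose spread is taken from the other groups, and it called 2.81% of all genes for BCR-ABL-Blk and 2.54% for BCR-ABL. With vector replicate 2 left out, 0 members were called in either comparison, where 1.14% of all genes were for BCR-ABL-Blk and 1.07% for BCR-ABL. The calls therefore depend on which vector array stands for the group.

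**Figure D5:**
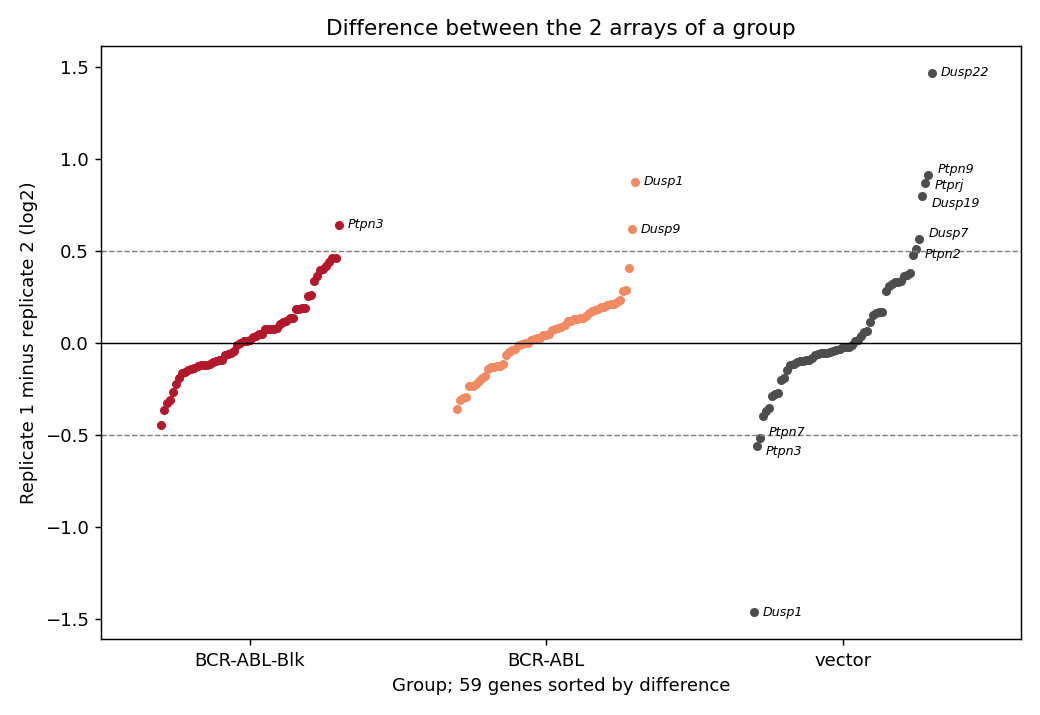
Replicate 1 minus replicate 2 in log2 signal for each of the 59 phosphatases, by group, with lines at 0.5 in either direction and the genes beyond them named. The vector pair has 9 genes beyond the lines, from 1.47 for Dusp22 to -1.46 for Dusp1, against 1 gene in BCR-ABL-Blk and 2 in BCR-ABL.

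The genes around the phosphatases were read from 4 lists, and 0 members of any list were called by limma in any comparison. Of 18 ERK feedback targets, 11 were higher and 7 lower in BCR-ABL-Blk than in vector cells, with a median difference of 0.09. At an unadjusted limma p below 0.05 there were 3, all higher, where 9.42% of all genes had such a p. In BCR-ABL minus vector 15 were higher and 3 lower, with a median of 0.22 and 5 at an unadjusted p below 0.05. Of all genes 54.3% were higher there, with a median of 0.02, and 8.64% had such a p. By array, the median level of the list was 7.95 and 7.80 in BCR-ABL-Blk, 8.23 and 8.04 in BCR-ABL, and 7.76 and 8.06 in vector cells. The BCR-ABL arrays therefore overlapped the vector arrays. Fos and Egr1 are also on the list of immediate-early and handling genes. Phlda1, an ERK-induced gene, read 6.78 and 6.46 in BCR-ABL-Blk, 7.19 and 7.02 in BCR-ABL, and 6.21 and 6.23 in vector cells. Its difference from vector was 0.65 for the mean of both (limma adjusted p = 0.0663) and 0.89 in BCR-ABL (adjusted p = 0.0634). Ier3, an early ERK target, differed by 0.92 in BCR-ABL (adjusted p = 0.107). By the mean difference 12 of the 18 were lower in BCR-ABL-Blk than in BCR-ABL and 6 higher, where 45.6% of all genes were higher. Phlda1 and Spry2 (a Ras pathway inhibitor) were at -0.49 each and Ier3 at -0.42 (limma adjusted p = 0.999). In this comparison 4 of the 18 had an unadjusted limma p below 0.05, all lower, where 3.96% of all genes had such a p.

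Of 18 MAP kinases and kinases above them, the median difference from vector was -0.03 in BCR-ABL-Blk and 0.09 in BCR-ABL. The 28 partners of SHP-1, SHP-2, CSK and CD45 had medians of -0.02 and 0.00 in the same comparisons. Fyn, a Src family kinase, was 0.80 higher than vector for the mean of both groups (limma adjusted p = 0.0646), Shc1, an adaptor to Ras, was -0.45 from it (adjusted p = 0.19), and Sirpa, a receptor that recruits SHP-1 and SHP-2, was -0.39 from it (adjusted p = 0.255). The 33 other phosphatases of the superfamily, which the naming rule leaves out, had medians of -0.03 and -0.02. Among them Eya1 differed by 0.64 (adjusted p = 0.284), Cdc14b by 0.54 (adjusted p = 0.338) and Tns3 by -0.35 (adjusted p = 0.351) for the mean of both minus vector.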

How the data were processed

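RNA was measured on 6 Affymetrix arrays, 2 per group, with groups and replicate numbers from the sample titles. The authors deposited log2 values for 35557 probe sets, made with Affymetrix Expression Console 1.1 and RMA per the submitters' processing notes; the genome build is not given in the sources used here. The deposited log2 medians ran from 7.01 to 7.52, so the arrays were quantile normalized, which can move small shifts of whole groups. Symbols came from the platform annotation, which can be old: 21789 probe sets had 1 symbol, 1621 several and 12147 none listed. All 59 members matched the RefSeq gene table by Entrez ID. Signal over background was not measured, and the number of arrays limits the precision.

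All 3 groups were fitted together with limma 3.58.1 in R 4.3.3 (lmFit, eBayes with an intensity trend, 3 residual and 4.4 prior degrees of freedom). P-values are two-sided and Benjamini-Hochberg adjusted over 19938 genes. The fit was tested on simulated data. Values on all arrays are given for called members, the 6 with the smallest p per comparison and 13 members known from blood cell signalling. Those of Ptpn9 and Dusp26 are given outside this rule. From each list other than those of cell type markers, called genes and up to 3 with the smallest p could be named. Cell type markers that passed were only counted. Probe sets of members and the Dusp22 values were added after the values were seen, as were the other Ptpn3 probe sets as alternatives. The members and the lists were chosen with earlier results of these data known. Alternatives were other scalings, weights, a filter on level, a replicate block and leaving out each array. Promoter sequences are from RefSeq, GRCm38.p6. Figures used Python 3.11.15 and matplotlib 3.10.9.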

Additional observations from a re-analysis of the deposited data

How the results depend on the processing

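The counts of members called were 0 in each comparison and stayed at 0 except as follows. Without normalization between arrays, 2 members were called for BCR-ABL-Blk minus vector (Ptpn12 at 0.47, adjusted p = 0.0174, and Ptpn3 at -0.79, adjusted p = 0.0445) and 1 for the mean of both minus vector (Ptpn12), where 3.67% and 3.08% of all genes were called. In that setting the median gene shifted by 0.15 for BCR-ABL-Blk minus vector and by 0.26 for BCR-ABL-Blk minus BCR-ABL. Leaving out each array in turn gave 0 to 2 members for BCR-ABL-Blk minus vector, 0 to 4 for BCR-ABL minus vector, 0 to 3 for the mean of both minus vector and 0 to 0 for BCR-ABL-Blk minus BCR-ABL; the counts above 0 came without vector replicate 1, where 2.81%, 2.54% and 3.88% of all genes were called in the first 3 comparisons. With the replicate number as a block, 0 members were called in all 4 comparisons; all-gene calls were 132 for the mean of both, against 100 without it. The differences between replicates 1 and 2 were almost uncorrelated across groups (r between -0.0618 and 0.0841). Whether arrays with the same number share a batch is not in the labels and was not tested.

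Small differences turned sign. Without normalization these were Dusp4 (0.12) and Ptpn4 (0.02) for BCR-ABL-Blk minus BCR-ABL and Ptpn11 (0.0125) for the mean of both; with median centring Ptpn11 was 0.0075. When arrays were left out in turn, the difference of the mean of both from vector ran from -0.81 to 0.65 for Dusp1, from -0.25 to 0.12 for Dusp6, from -0.0883 to 0.245 for Ptpn1, from -0.2025 to 0.0825 for Ptpn11, from -0.13 to 0.0371 for Ptpn22, from -0.0167 to 0.13 for Ptprc and from -0.14 to 0.725 for Ptprj. With another probe set, Ptpn3 was 0.15 or 0.23 for BCR-ABL-Blk minus vector, 0.0775, 0.14, 0.19, 0.0875 or 0.005 for BCR-ABL-Blk minus BCR-ABL, and 0.11 or 0.19 for the mean of both. Ptprg stayed between 0.61 and 0.83 for the mean of both, with adjusted p between 0.0758 and 0.319; the filter on level removed it with Dusp4, Dusp18, Ptprf and Ptprd.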
